A study of Rattus norvegicus and Bos taurus with 12 samples.

Results

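Genes of sterol and fatty acid synthesis were followed through right ventricular cardiac fibroblasts (Cfib) of calves and through adult rat ventricular myocytes (ARVM). They were chosen by symbol from a fixed list of 35 names for 34 genes, Cyp51 and Cyp51a1 being the rat and bovine names of 1 enzyme. Of these, 18 were among the 2115 genes listed for Cfib and 29 among the 7052 listed for ARVM, 16 of them in both, and Pmvk, Ebp and Insig2 were in neither. The sterol branch held 12 of the 18 genes in Cfib and 19 of the 29 in ARVM, and the fatty acid branch the other 6 and 10.

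RNA of 12 libraries was sequenced, 3 in each of 4 groups. The Cfib came from control calves kept at ambient altitude (CO) or from calves in which reduced atmospheric pressure had induced pulmonary hypertension (PH), and were grown in serum and then held in serum-free medium before harvest. The ARVM came from healthy Sprague Dawley rats. They were either freshly isolated and, by the study's account, untreated, or kept for 7 days in medium conditioned by PH Cfib (PH-CM). The labels name cow serum, from low or high altitude, as a treatment for all 4 groups, freshly isolated ARVM included. The methods do not describe this, and for the freshly isolated ARVM the labels and the study's account differ. If serum was used and its source differed between groups, it cannot be told apart from the contrasts here. Cfib libraries came from separate calves by the study's account, whereas nothing says that ARVM libraries came from separate rats, so their p-values measure only the spread between libraries, which may be technical. No ARVM cultured without PH-CM were analysed here, so time in culture, serum-free medium and conditioned medium cannot be told apart. In bulk RNA, fewer cells of a type and less RNA per cell cannot be told apart either.

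Cells make cholesterol from acetyl-CoA through mevalonate, farnesyl diphosphate, squalene and lanosterol, and make fatty acids from the same acetyl-CoA by chain synthesis, elongation and desaturation. Transcription factors of the SREBP family are known to drive both sets of genes. SCAP carries SREBP out of the endoplasmic reticulum for cleavage when sterols are low, and INSIG proteins hold the complex back when sterols are high.

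The values differ in kind between the tables. ARVM values were read counts divided by a size factor of each library (12122463 to 18842171 reads on listed genes), here called normalized counts, and are compared only within a gene. Cfib values were taken as scaled by gene length and library, with unknown depth. The methods describe normalized counts, so this unit is not settled. Comparisons of level between Cfib genes hold only if the values are scaled by length. Fold changes were tested with limma on log2(value + 1), and p-values were adjusted by the Benjamini-Hochberg method over every gene listed in that table. The authors listed only genes they had selected by p-value, so a gene that was not listed is not shown to be unchanged. That selection used the same libraries and contrast. The adjusted p-values given here do not account for it and are not independent evidence of change. For Cfib and for ARVM alike, 100% of listed genes had groups that did not overlap, which therefore holds for every gene named below.

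All 18 genes listed for Cfib fell in PH, and 27 of the 29 listed for ARVM rose in PH-CM while Fdft1 and Me1 fell (adjusted p under 0.05, limma). Of all genes listed for Cfib, 39.4% were called lower, 58.2% higher and 97.5% in either direction. Of those listed for ARVM, 53.9% were called higher, 43.7% lower and 97.6% in either direction. The median log2 fold change of the synthesis genes was -1.20 in Cfib and 1.44 in ARVM, beside 0.33 and 0.37 for all listed genes. Among genes with a mean lower in PH, the median over all listed was -0.69 in Cfib, and among those with a mean higher in PH-CM it was 1.34 in ARVM, close to the value of the synthesis genes there.

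**Figure D1:**
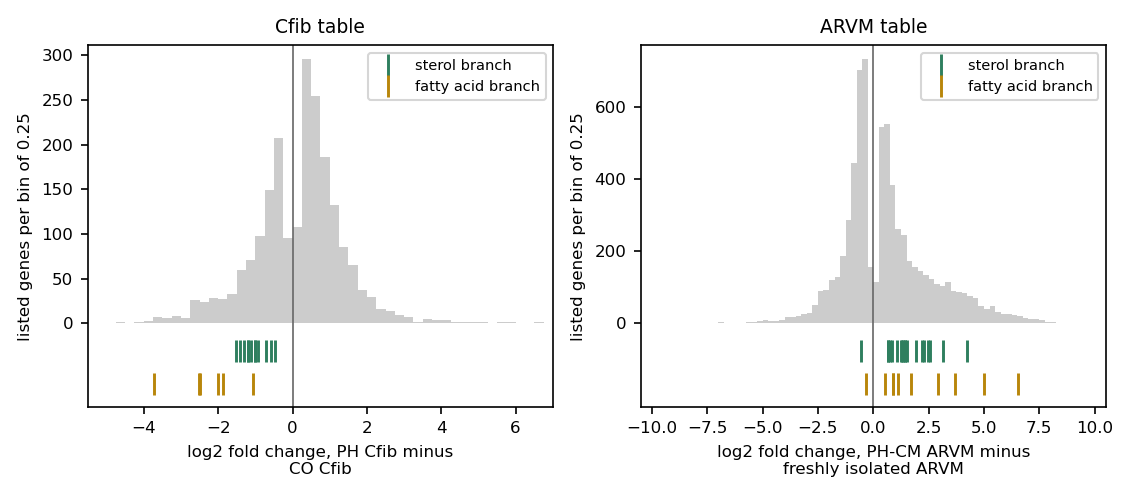
Histograms of the log2 fold change (x axis) of all genes listed for Cfib (left, 2115 genes) and ARVM (right, 7052 genes), as genes per bin (y axis), with each sterol (green) and fatty acid (gold) synthesis gene as a tick below. All 18 ticks lie below 0 in Cfib, the fatty acid ticks farther down, and 27 of 29 lie above 0 in ARVM.

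In Cfib the fatty acid branch, as far as it was listed, fell farther than the sterol branch. Its median log2 fold change was -2.25 (range -3.72 to -1.06, 6 genes), against -1.06 (range -1.53 to -0.47, 12 genes) in the sterol branch, and 5 of the 6 fatty acid genes fell by more than every sterol gene. A fall of at least 1 on the log2 scale was called for 14 of the 18 genes, and for 14.3% of all listed genes, with 19.7% rising and 34.0% changing either way by that much. No test between the branches was made, since genes are not replicates. Of the fixed list, 6 of 12 fatty acid names and 12 of 23 sterol names (Cyp51 under both its names) were listed for Cfib. The genes of chain synthesis, FASN and ACACA, were not listed, nor were ACLY, ELOVL6, SCD2 and FADS1. The median of the fatty acid branch therefore does not cover chain synthesis.

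Of the desaturases, which place double bonds in fatty acyl chains, FADS2 changed most of all listed synthesis genes. The change of SCD could not be ordered against that of ACSS2 (log2 fold change -2.48 ± 0.08), which is not a desaturase. FADS2, the delta6 desaturase of polyunsaturated chains, had values of 235, 275 and 189 in CO Cfib and of 14.6, 16.8 and 18.7 in PH Cfib. The lowest CO library was 10.1 times the highest PH library. The mean of FADS2 was 13.97-fold lower in PH (233 ± 42.9 in CO and 16.7 ± 2.09 in PH, SD, n = 3), and the log2 fold change was -3.72 ± 0.15 (SE, adjusted p = 5.41e-06, limma). Of all genes listed for Cfib, 0.331% fell by more. SCD, the delta9 desaturase that makes monounsaturated chains, measured 321, 311 and 247 in CO and 49.4, 47.9 and 52.1 in PH. Every PH library of SCD was at or below 52.1, and its mean was 5.89-fold lower (log2 fold change -2.52 ± 0.11, adjusted p = 7.10e-06, limma).

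ACSS2, which makes acetyl-CoA from acetate in the cytosol, measured 74.7, 61.8 and 72.2 in CO and 11.3, 11.6 and 11.8 in PH. Its mean was 6.01-fold lower (log2 fold change -2.48 ± 0.08, adjusted p = 3.05e-06, limma), the smallest adjusted p of the 18 genes. ELOVL5, an elongase of polyunsaturated chains, measured 367, 284 and 294 in CO and 81.8, 85.0 and 87.7 in PH. The lowest CO library of ELOVL5 was 3.24 times the highest PH library, and its log2 fold change was -1.87 ± 0.11. SREBF1, which encodes the transcription factor SREBP-1 of lipogenic genes, measured 73.1, 84.1 and 66.7 in CO and 17.7, 17.2 and 18.1 in PH, a log2 fold change of -2.01 ± 0.09 (adjusted p = 7.78e-06, limma). ME1, the cytosolic malic enzyme that supplies NADPH, fell least in this branch, from 66.0 ± 5.83 to 31.2 ± 1.72 (log2 fold change -1.06 ± 0.08).

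The listed genes of the sterol branch fell in each of its steps, of which sterol regulation held only INSIG1, 1 of 4 names. MVK, FDPS, SQLE, LSS, DHCR7, SREBF2 and STARD4 were not listed for Cfib, nor were PMVK, EBP and INSIG2. The sterol branch is therefore covered only in part. INSIG1, a target of SREBP that retains SCAP, measured 76.0, 73.3 and 86.5 in CO and 27.2, 26.3 and 26.3 in PH. The PH libraries of INSIG1 lay within 1 unit of each other, and its fall was the largest of the sterol genes (2.96-fold, log2 fold change -1.53 ± 0.07, adjusted p = 1.02e-05, limma). ACAT2, the thiolase that opens the mevalonate arm, measured 202, 193 and 215 in CO and 73.1, 78.3 and 77.4 in PH (log2 fold change -1.40 ± 0.06). IDI1, the isopentenyl diphosphate isomerase, was more spread in CO, at 192, 169 and 261, and measured 82.1, 78.3 and 86.6 in PH (log2 fold change -1.30 ± 0.16). Of the other genes of this arm, MVD, the decarboxylase that forms isopentenyl diphosphate, had a log2 fold change of -1.12 ± 0.15, and HMGCS1, the cytosolic HMG-CoA synthase, one of -0.93 ± 0.07.

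From squalene synthesis to cholesterol, 7 genes were listed, with log2 fold changes from -1.20 to -0.47. TM7SF2, a sterol C14 reductase, fell 2.52-fold from 16.6 ± 2.82 to 6.58 ± 0.420, the lowest mean value of the 18 genes in both groups. HSD17B7, a 3-keto sterol reductase, fell by 1.19 on the log2 scale, and MSMO1, the C4 methylsterol oxidase, and FDFT1, the squalene synthase, by 1.01 each. The smaller changes were those of SC5D, the lathosterol oxidase (-0.70 ± 0.07), NSDHL, a C4 decarboxylating dehydrogenase (-0.57 ± 0.06), and CYP51A1, the lanosterol demethylase (-0.47 ± 0.07). CYP51A1 measured 115, 101 and 103 in CO and 74.7, 74.9 and 79.0 in PH. Its groups were the closest of the 18 genes, with the lowest CO library at 1.28 times the highest PH library (adjusted p = 8.30e-04, limma).

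**Figure D2:**
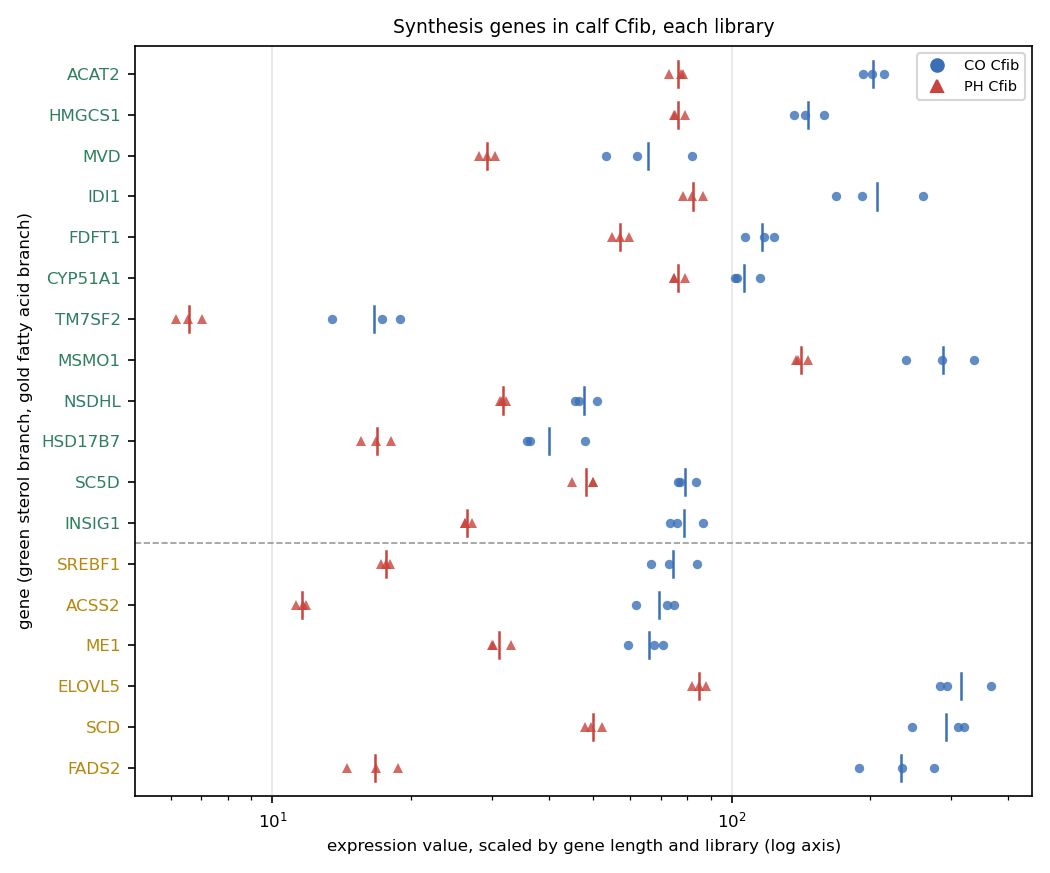
Expression value of each of the 18 synthesis genes listed for Cfib (x axis, log scale, taken as scaled by gene length and library) in CO libraries (blue circles) and PH libraries (red triangles), with group means as vertical strokes. No gene's groups overlap, as for 100% of genes listed for Cfib. The widest gap is that of FADS2, from 189 in the lowest CO library to 18.7 in the highest PH library.

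If Cfib values are scaled by gene length, which was not settled, levels can be ordered across genes. In CO the highest means were those of ELOVL5 (315 ± 45.5), SCD (293 ± 40.4) and MSMO1 (288 ± 48.9), which lay within 1 SD of each other, followed by FADS2 (233 ± 42.9). In PH, MSMO1 came first at 141 ± 4.27 and ELOVL5 next at 84.9 ± 2.96, close to IDI1 at 82.3 ± 4.15. FADS2 moved from place 4 of 18 in CO to place 16 in PH, and SCD from place 2 to place 8. HMGCS1, ACAT2 and CYP51A1 could not be ordered in PH, at means of 76.3, 76.3 and 76.2.

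PH libraries varied less than CO libraries. The coefficient of variation was larger in CO for 17 of the 18 genes, with a median of 10.8% in CO and 3.75% in PH, and over all listed genes the medians were 13.7% and 5.01%. With the PH libraries averaged into 1 sample, which is then assumed to vary like the CO libraries since they alone give the spread, the adjusted p of the 18 genes was at most 0.0452 (CYP51A1, limma), and calls over all listed genes went from 2063 to 1038. In CO the branches differed in which library was highest. CO Cfib 3 was highest for 8 of 12 sterol genes and for 0 of 6 fatty acid genes, beside 46.5% of listed genes with a mean lower in PH. Without CO Cfib 3 the sterol median was -0.97 and without CO Cfib 2 it was -1.19.

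Other changes went along with these in Cfib. Of 12 cell cycle markers 10 were listed, and all 10 fell (summed level 272 to 397 in CO libraries and 25.6 to 28.2 in PH libraries). Of 10 fibroblast markers 3 were listed and rose, and no cardiomyocyte or red cell marker was listed, which in a table of selected genes does not give their levels. Of 12 leukocyte and macrophage markers 5 were listed, 4 higher and 1 lower, with summed levels of 9.56 to 12.7 in CO and 12.1 to 12.8 in PH, and 2 of them were at 0 in all CO libraries. The part of these changes in the fall of the synthesis genes was not tested.

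Genes around the pathway did not all move the same way in Cfib. Of 12 genes of SREBP processing and sterol sensing 4 were listed, and all 4 rose. They included SCAP, the SREBP escort, from 27.1 ± 8.02 to 47.9 ± 2.32 (log2 fold change 0.84 ± 0.22), SYVN1 (0.76 ± 0.18) and ERLIN2 (0.63 ± 0.12). Of 19 other genes of fatty acid synthesis and elongation 8 were listed, 4 higher and 4 lower. HSD17B12 and TECR, which carry out the reductions of the elongation cycle, fell by 1.67 and 1.22 on the log2 scale, and ELOVL7, another elongase, rose by 1.29. Of 6 genes of NADPH supply 2 were listed and fell, IDH1 with a log2 fold change of -0.84 ± 0.10 and TKT with one of -0.52 ± 0.09.

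In ARVM, genes of both branches were higher in PH-CM than in freshly isolated cells. The sterol branch had a median log2 fold change of 1.44 (range -0.53 to 4.25, 19 genes) and the fatty acid branch one of 1.41 (range -0.32 to 6.53, 10 genes), its upper end being the fitted value of Elovl6, which had no reads in freshly isolated cells. A rise of at least 1 on the log2 scale was called for 20 of the 29 genes, and for 32.3% of all listed genes, with 16.0% falling and 48.3% changing either way by that much. In the same libraries, 11 of the 12 listed cardiomyocyte markers (of 13) fell, from summed normalized counts of 1677610 to 1699920 in freshly isolated ARVM to 166807 to 205217 in PH-CM. All 10 fibroblast markers rose (summed 4290.2 to 5322 and 99941 to 146647), as did the 11 leukocyte and macrophage markers listed of 12 (267 to 378 and 8377 to 12302) and all 12 cell cycle markers (199 to 297 and 3989 to 6718). None of these markers was at 0 in every library of a group. Their part in the rise of the synthesis genes was not tested.

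Proximal promoters of 8 of these rat genes are given so that a known shared element can be seen. Promoters of sterol genes are known to carry sites for SREBP next to sites for NF-Y, which binds CCAAT, and for SP1, which binds GC boxes. The letters CCAAT, searched on both strands in windows from 250 bases before to 50 after the gene start (RefSeq, GRCr8), were found for 18 of the 23 listed genes that had a window (78.3%), and in 37.5% of all 33469 windows. GGGCGG was found for 19 of 23 (82.6%, and 33.1% of all windows), CACGTG for 3 (13.04% and 6.42%), and TCACNCCAC, 1 written form of the sterol regulatory element, for 0 (1.12% of all windows). No CCAAT match overlapped a match to another of these motifs in the listed genes, and in Dhcr7 GGGCGG matches overlapped each other. A match is a description of these letters and no match says only that they are not in the window. No window was given for Acaca, Elovl6, Fasn, Fdft1, Sqle and Stard4.

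The 150 bases before the start are printed here for 4 sterol genes and 4 fatty acid or comparison genes that the results turn on, on the gene's own strand, with CCAAT or its reverse complement ATTGG in capitals. Hmgcs1 lies at chr2:53382154-53382303 (plus strand), Fdps at chr2:176804817-176804966 (minus strand), Idi1 at chr17:66547525-66547674 (minus strand) and Msmo1 at chr16:29746963-29747112 (plus strand). Scd2 lies at chr1:253118227-253118376 (plus strand) and Fads1 at chr1:216252542-216252691 (plus strand). Dhcr7 at chr1:208444284-208444433 (plus strand), which rose most of the sterol genes, and Me1 at chr8:96540245-96540394 (minus strand), which fell, hold no CCAAT in their windows.
Hmgcs1: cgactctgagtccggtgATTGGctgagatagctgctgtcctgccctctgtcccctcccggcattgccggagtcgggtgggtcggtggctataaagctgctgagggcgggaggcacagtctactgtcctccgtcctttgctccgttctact
Fdps: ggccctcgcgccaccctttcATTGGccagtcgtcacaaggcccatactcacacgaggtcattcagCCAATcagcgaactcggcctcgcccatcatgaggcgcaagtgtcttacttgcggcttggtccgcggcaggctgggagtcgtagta
Idi1: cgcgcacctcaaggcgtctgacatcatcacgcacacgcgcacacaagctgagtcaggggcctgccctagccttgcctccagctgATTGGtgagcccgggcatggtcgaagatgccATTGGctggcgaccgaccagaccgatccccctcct
Msmo1: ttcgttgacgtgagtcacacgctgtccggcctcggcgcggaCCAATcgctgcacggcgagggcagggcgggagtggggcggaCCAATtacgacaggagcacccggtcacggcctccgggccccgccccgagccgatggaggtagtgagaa
Scd2: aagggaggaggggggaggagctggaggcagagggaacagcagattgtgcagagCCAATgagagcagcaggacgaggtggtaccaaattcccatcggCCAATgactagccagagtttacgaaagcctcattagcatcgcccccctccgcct
Fads1: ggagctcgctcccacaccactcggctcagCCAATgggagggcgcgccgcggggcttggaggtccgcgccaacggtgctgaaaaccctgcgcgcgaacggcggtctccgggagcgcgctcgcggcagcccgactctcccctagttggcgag
Dhcr7: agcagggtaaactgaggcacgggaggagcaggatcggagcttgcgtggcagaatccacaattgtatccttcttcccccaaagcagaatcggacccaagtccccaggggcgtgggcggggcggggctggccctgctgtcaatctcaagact
Me1: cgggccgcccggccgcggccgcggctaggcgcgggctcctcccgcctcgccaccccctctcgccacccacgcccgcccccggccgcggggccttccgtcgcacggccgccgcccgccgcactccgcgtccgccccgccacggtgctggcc
Pairs of boxes lie in the printed stretches of Fdps, Idi1, Msmo1 and Scd2. They begin at 130 and 85 bases before the start in Fdps, at 66 and 35 in Idi1, at 109 and 68 in Msmo1 and at 97 and 54 in Scd2. Hmgcs1 and Fads1 have 1 box each in the printed stretch, at 133 and 121 bases before the start. Farther out in the searched window, Msmo1 has another box at 173 bases and Hmgcs1 another at 188. Mvk and Nsdhl, which are not printed, have 5 boxes each in their windows. Genes with and without a box both rose, as Acat2, Cyp51, Dhcr7 and Fads2 had none in the window.

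The 4 largest rises of the sterol branch were those of genes that act after squalene synthesis. Of these 4, Sqle and Lss could not be ordered against Acat2 of the mevalonate arm (log2 fold change 2.27 ± 0.24). Dhcr7, the reductase of the final step of one route to cholesterol, had normalized counts of 30.1, 16.1 and 28.9 in freshly isolated ARVM and of 487, 398 and 559 in PH-CM. Its mean was 19.2-fold higher (log2 fold change 4.25 ± 0.29, adjusted p = 6.21e-06, limma), and 6.72% of listed genes rose by more. Tm7sf2 measured 15.8, 40.7 and 12.4 in freshly isolated cells and 204, 166 and 182 in PH-CM, with a log2 fold change of 3.13 ± 0.43. The freshly isolated libraries of Tm7sf2 were the most spread of the 28 genes with reads there, with a coefficient of variation of 67.2%. Sqle, the squalene epoxidase, measured 99.7, 61.1 and 85.7 and then 475, 396 and 563 (log2 fold change 2.54 ± 0.23). Lss, the lanosterol synthase, measured 146, 162 and 160.1 and then 985, 600.5 and 1155 (2.49 ± 0.23). All of these were called in limma, and the PH-CM libraries of Lss were the most spread in PH-CM.

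Msmo1 measured 351, 339.6 and 345 in freshly isolated ARVM and 1717, 1317 and 1787 in PH-CM. The freshly isolated libraries of Msmo1 agreed most closely of the 28 genes with reads in them, and its log2 fold change was 2.20 ± 0.12 (adjusted p = 2.02e-06, limma). The remaining late genes rose less, Sc5d by 1.44 ± 0.16, Nsdhl by 1.33 ± 0.22, Cyp51 by 1.27 ± 0.12 and Hsd17b7 by 0.83 ± 0.19 on the log2 scale. Fdft1, which commits farnesyl diphosphate to sterols, was the exception, at 2738, 2723 and 2946 in freshly isolated cells and 2108, 1866 and 1838 in PH-CM. Its mean was 1.45-fold lower (log2 fold change -0.53 ± 0.07, adjusted p = 2.26e-04, limma).

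In the mevalonate arm all 6 listed genes rose. Acat2 measured 90.2, 92.1 and 66.1 in freshly isolated cells and 444, 300.2 and 475 in PH-CM (log2 fold change 2.27 ± 0.24). Idi1 measured 399, 286 and 288 and then 1238, 1010.3 and 1459.9 (1.93 ± 0.18), and Hmgcs1 measured 1079, 844 and 920.4 and then 2795, 2262 and 3287 (1.54 ± 0.14). The lowest PH-CM library of each was at least 2.10 times the highest freshly isolated one. Mvk, the mevalonate kinase (1.28 ± 0.25), and Mvd (1.05 ± 0.12) rose less, and Fdps, the farnesyl diphosphate synthase, rose from 2716 ± 58.0 to 4575 ± 764 (0.74 ± 0.12). Of the regulators, Stard4, a sterol carrier of the cytosol, rose by 1.44 ± 0.19, Insig1 by 0.68 ± 0.09 and Srebf2, which encodes SREBP-2, by 0.66 ± 0.12 on the log2 scale.

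Desaturases and an elongase rose most in the fatty acid branch. Scd2, a delta9 desaturase, measured 174, 167 and 222 in freshly isolated ARVM and 6203, 4530.3 and 7649 in PH-CM. The lowest PH-CM library was 20.4 times the highest freshly isolated one, and the mean was 32.6-fold higher (adjusted p = 3.51e-07, limma). Scd, a close relative of Scd2, was not listed, and how reads that both could have given were assigned is not given in the sources used here. Elovl6, which elongates chains of palmitate length, had no read in any freshly isolated library and normalized counts of 114, 80.2 and 83.8 in PH-CM. Against 3 reads over the freshly isolated group it was at least 78.3-fold higher. Elovl6 had the largest rise of the branch both as fitted and at this bound, so the branch median of 1.41 is necessarily the same with either. With a minimum mean of 50, which drops Elovl6, the branch median was 1.10.

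Fads1, the delta5 desaturase, measured 79.1, 65.3 and 64.0 and then 941, 747 and 1048, a mean 13.1-fold higher (log2 fold change 3.69 ± 0.18, adjusted p = 9.76e-07, limma). Fads2 measured 104, 72.8 and 65.1 and then 674, 422 and 757, a mean 7.64-fold higher (2.90 ± 0.27). The lowest PH-CM library was 9.44 times the highest freshly isolated one for Fads1 and 4.04 times for Fads2. Fasn, the fatty acid synthase, measured 701, 498 and 448 and then 1776, 1426 and 2211 (1.72 ± 0.20). Smaller rises were those of Elovl5 (1.10 ± 0.18), Srebf1 (0.90 ± 0.17), Acly, the ATP citrate lyase (0.89 ± 0.11), and Acaca, the acetyl-CoA carboxylase (0.55 ± 0.13). Me1 fell, from 2141, 1936 and 2165 to 1673, 1738 and 1601 (log2 fold change -0.32 ± 0.07, adjusted p = 2.63e-03, limma). The lowest freshly isolated library of Me1 was 1.11 times the highest PH-CM library, the closest groups of the 29 genes.

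**Figure D3:**
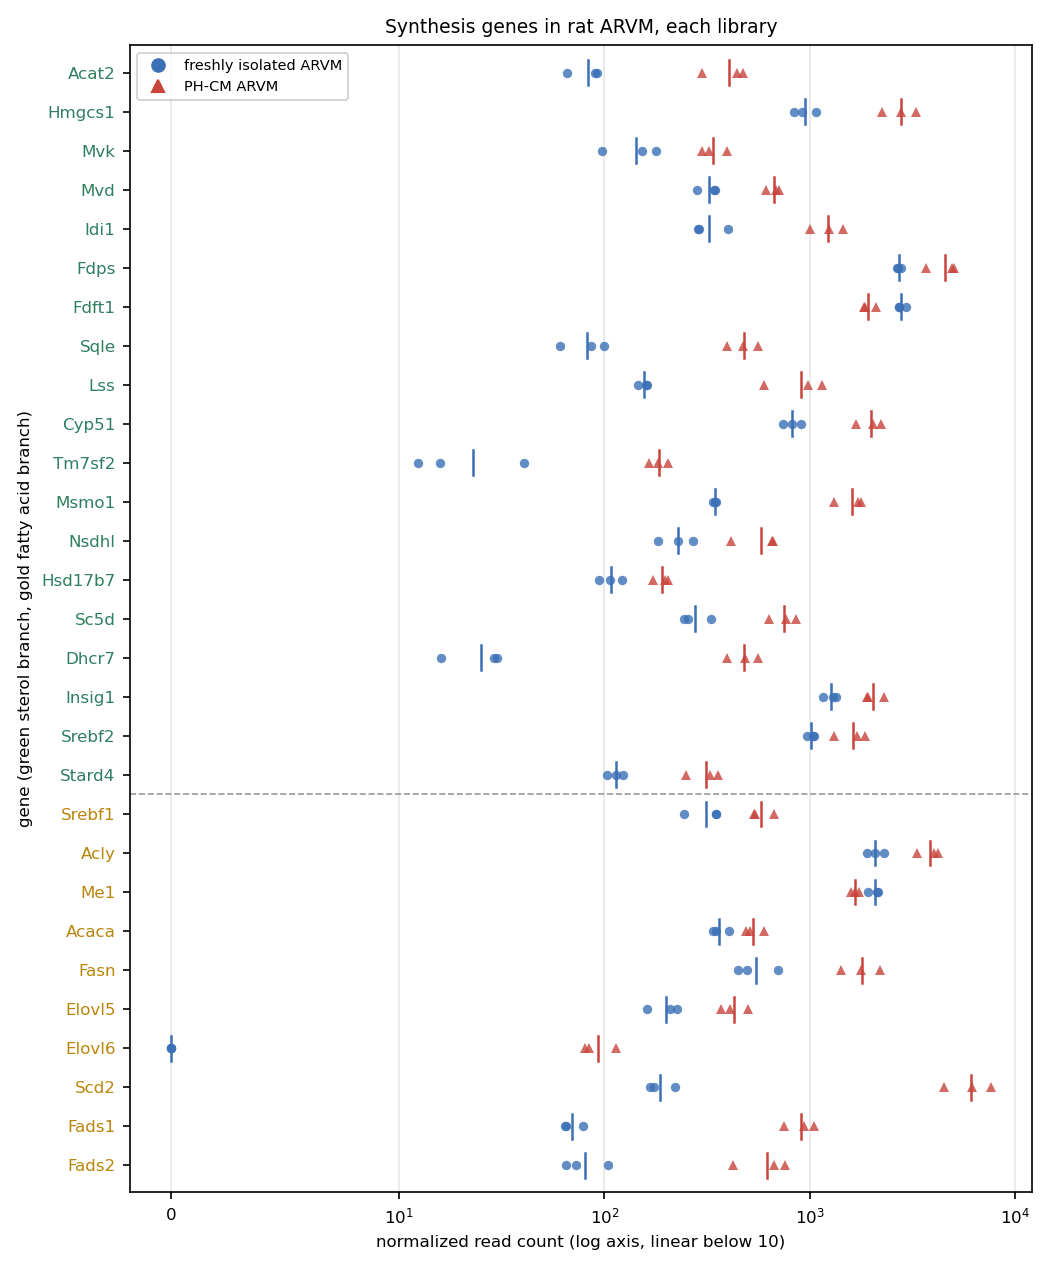
Normalized counts of the 29 synthesis genes listed for ARVM (x axis, log scale above 10 and linear below) in freshly isolated libraries (blue circles) and PH-CM libraries (red triangles), with group means as vertical strokes. Elovl6 lies at 0 in freshly isolated cells, Fdft1 and Me1 are lower in PH-CM, and Scd2 reaches 7649.

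The synthesis genes shared an order of the PH-CM libraries. PH-CM library ha209 was lowest for 24 of the 29 genes (82.8%) and PH-CM library ha211 highest for 23 (79.3%), beside 52.5% and 50.6% of all listed genes with a mean higher in PH-CM. The median log2 deviation from the group mean was -0.26 in ha209 and 0.21 in ha211, and both branches showed it (-0.26 and -0.20 in library ha209). Insig1 and Me1 went the other way and were highest in library ha209. Fibroblast, leukocyte and cell cycle markers were also lowest in library ha209 and highest in library ha211 by their summed counts. Cardiomyocyte markers summed to 205217 in PH-CM library ha2, 188129 in ha209 and 166807 in ha211, and so were lowest in ha211. The part of these markers in the order was not tested. Without library ha209 the branch medians were 1.56 (sterol) and 1.54 (fatty acid), and without library ha211 they were 1.33 and 1.27.

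**Figure D4:**
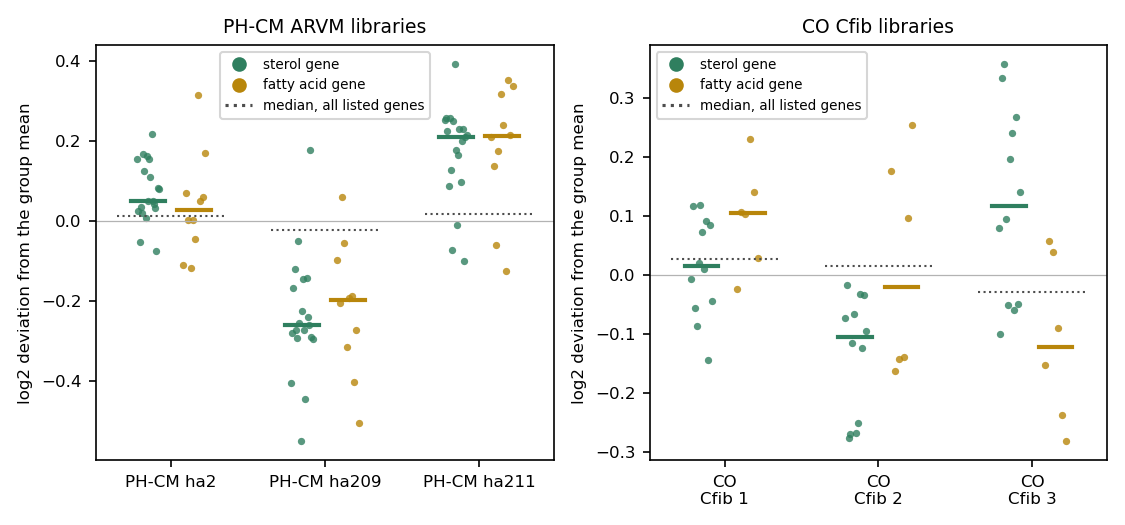
Log2 deviation of each synthesis gene from its group mean (y axis) in the libraries of PH-CM ARVM (left) and CO Cfib (right), sterol genes in green and fatty acid genes in gold, with branch medians as bars and the median of all listed genes dotted. Most points are below 0 in PH-CM ha209 and above 0 in PH-CM ha211, whereas in CO Cfib 3 the sterol median is above 0 and the fatty acid median below.

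Around the pathway in ARVM, only 2 of 12 genes of SREBP processing and sterol sensing were listed, Mbtps1, the protease that first cleaves SREBP, which rose by 0.54 ± 0.05 on the log2 scale, and Rnf139, which had a log2 fold change of -0.22 ± 0.08. Of 6 genes of NADPH supply 5 were listed, 4 higher and 1 lower. Pgd, an enzyme that yields NADPH, had normalized counts of 2591 ± 84.6 in freshly isolated cells and of 6388 ± 177 in PH-CM (log2 fold change 1.30 ± 0.05), and Tkt rose by 1.49 ± 0.08. Of 19 other genes of fatty acid synthesis and elongation 13 were listed, 6 higher and 7 lower. Mlxipl, a carbohydrate-responsive factor of lipogenic genes, and Mid1ip1, which promotes acetyl-CoA carboxylase activity, fell by 2.83 and 2.24 on the log2 scale. Elovl4 had no read in freshly isolated cells and a mean of 18.7 ± 7.25 in PH-CM.

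Of the 16 synthesis genes listed in both tables, 14 were lower in PH Cfib and higher in PH-CM ARVM (87.5%), as were 27.4% of the 1178 symbols that both tables list. The 1178 were matched by symbol alone, so Cyp51 with its bovine name CYP51A1 is counted only among the 16. Fdft1 and Me1 were lower in both. The tables come from different species, cells and contrasts, with no shared libraries, and the differences are set side by side without a test between them. Fads2 had the largest fall of the 16 in Cfib (-3.72 ± 0.15) and a rise in ARVM (2.90 ± 0.27) that could not be ordered against that of Tm7sf2 (3.13 ± 0.43). Insig1 fell by 1.53 in Cfib and rose by 0.68 in ARVM, whereas Cyp51 fell by 0.47 and rose by 1.27.

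**Figure D5:**
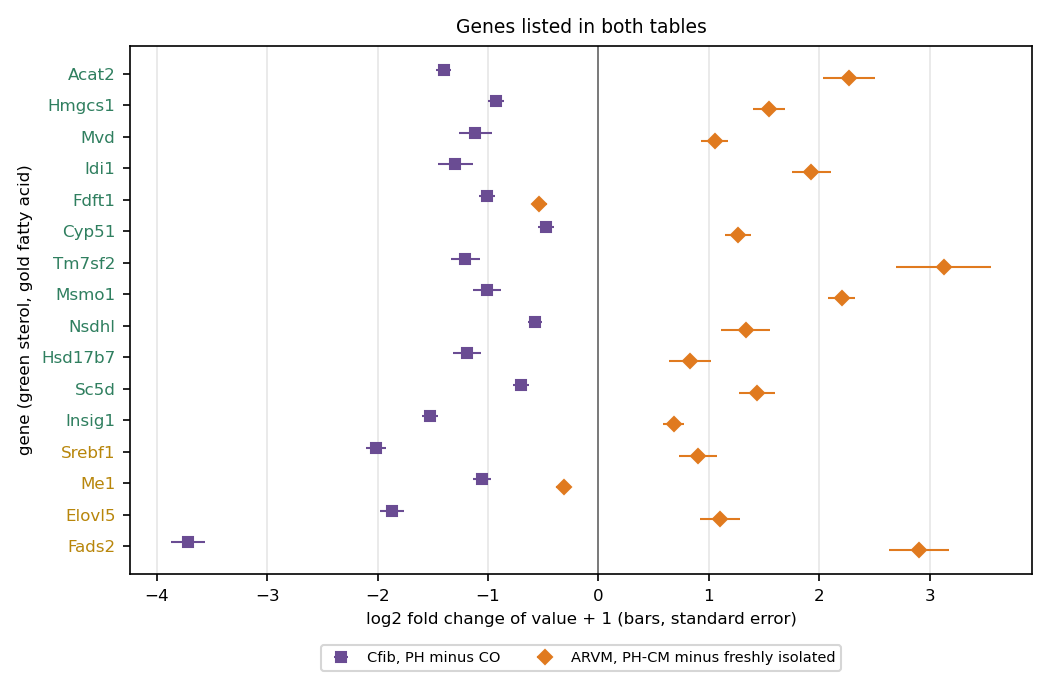
Log2 fold change with its standard error (x axis) of the 16 synthesis genes listed in both tables, for Cfib (PH minus CO, purple squares) and ARVM (PH-CM minus freshly isolated, orange diamonds). Fdft1 and Me1 are the genes whose points both lie below 0.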

How the data were processed

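RNA of 12 libraries was depleted of ribosomal RNA and sequenced on a HiSeq4000 by the authors, who aligned reads with HISAT2 and StringTie (BosTau8 and rn6) and normalized with DESeq2. They kept genes above 1 in a condition with a p-value under 0.05. The deposited values are a signal, which for ARVM equals reads over the size factor of the library (100% whole multiples within 0.01 reads). For Cfib the signal was taken as a value scaled by gene length and library, and its unit was not settled. Groups came from the sample labels. Differences were tested with limma 3.58.1 (R 4.3.3, eBayes with trend) on values + 1 on the log2 scale. P-values were adjusted over each table (Benjamini-Hochberg, threshold 0.05). A model over all listed genes was used because an exact permutation test of 3 against 3 libraries cannot go below 0.1. Those genes had already been selected by p-value on the same libraries, which the adjustment does not account for. On the recovered ARVM reads, edgeR 4.0.16 and DESeq2 1.42.0 were run as alternatives. Others changed the pseudocount (0.1 and 10), a minimum mean (5 or 50), scaling, the trend, single libraries, the replicate block and the averaging of PH libraries. The fits were tested on simulated data in which most genes were unchanged and none was selected by p-value. The listed genes differ in both respects, so that test does not check the fits under such selection.

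Members, 6 companion lists and 8 marker lists were chosen with earlier results of these data known. Every listed member is named, and of each companion list up to 3 called genes with the largest change. A further item of these lists is not reported here. Promoters are RefSeq windows of GRCr8 and bovine promoters were not analysed here.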

Additional observations from a re-analysis of the deposited data

How the results depend on the processing

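Every synthesis gene kept its direction, and its call at an adjusted p under 0.05, in each refit run for it. This was largely set in advance, because all listed genes had been selected by p-value on these libraries. Groups did not overlap for 100% of listed genes, so leaving out 1 library could not turn a direction. In the main fits 97.5% of genes listed for Cfib and 97.6% of those listed for ARVM were called. With a minimum change of 1 on the log2 scale, 14 of 18 genes were called in Cfib (not HMGCS1, SC5D, NSDHL and CYP51A1) and 20 of 29 in ARVM. Of all listed genes, 14.3% were called lower at that size in Cfib (34.0% either way) and 32.3% higher in ARVM (48.3% either way). In Cfib the sterol median was -0.90 with a pseudocount of 10 and -1.35 with median-of-ratios scaling, which moved the median of all listed genes from 0.33 to 0.07, and ranged from -1.19 to -0.97 with 1 library left out. The fatty acid median was -1.82 and -2.52 under the same pseudocount and scaling, and ranged from -2.27 to -2.21 with 1 library left out. In ARVM the fatty acid median was 1.10 with a minimum mean of 50, which drops Elovl6, and with 1 library left out the medians ranged from 1.33 to 1.56 (sterol) and 1.27 to 1.55 (fatty acid). No fall of a synthesis gene reached 1 on the log2 scale in ARVM, so 0 of them were called lower at that size, beside 2 with no minimum size. Of all genes listed for ARVM, 16.0% were called lower at that size.

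Cfib libraries share the numbers 1 to 3. With a replicate block 18 genes were called lower, 0 higher, and the medians were -1.06 and -2.25. Of all 2115 listed genes, 1983 were called in either direction in that fit. Libraries of equal number had correlations of deviations of 0.258, 0.0312 and 0.259, and 5 of 6 correlated best with their own number. The sources used here do not call equal numbers pairs, and the main fit did not pair them. Whether equal numbers mark pairs or a shared batch was not tested. No paired analysis was possible for ARVM because the groups share no replicate number. Calls over all listed genes in Cfib were 1038 with the PH libraries averaged, beside 2063. Depth limits low genes such as Tm7sf2 in freshly isolated ARVM, and the depth of Cfib is unknown.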

Other observations

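Genes that use or store the products of the pathway were listed in part. In Cfib, of 15 genes of sterol efflux, esterification and transport 4 were listed, 2 higher and 2 lower. NPC2, a lysosomal cholesterol carrier, fell from 589 ± 153 to 194 ± 11.6 (log2 fold change -1.57 ± 0.18), SCARB1, a lipoprotein receptor, fell by 0.42 on the log2 scale and GRAMD1A, a sterol transporter, rose by 0.35. Of 14 genes of prenyl and isoprenoid use NUS1 (-0.28 ± 0.06) and PDSS1 (-0.38 ± 0.11) were listed, and of 12 genes of glycerolipid synthesis GPAM (0.51 ± 0.12) and DGAT1 (0.34 ± 0.09), all called in limma.

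In ARVM, of the 15 genes of sterol efflux, esterification and transport 10 were listed, of which 7 rose with PH-CM and 3 fell. Ch25h, the cholesterol 25-hydroxylase, rose from 34.2 ± 1.89 to 209.4 ± 36.5 normalized counts (log2 fold change 2.57 ± 0.23), Scarb1 rose by 1.70 and Soat1, which esterifies cholesterol, by 1.38. Of the 14 genes of prenyl and isoprenoid use 7 were listed, 3 higher and 4 lower, among them Coq2 and Pdss2 of coenzyme Q synthesis, with log2 fold changes of -1.21 ± 0.08 and -0.996 ± 0.16, and Fntb, a farnesyltransferase subunit, with 0.57 ± 0.23. Of the 12 genes of glycerolipid synthesis 8 were listed, 2 higher and 6 lower. The phosphatidate phosphatases went apart, Lpin3 rising by 2.73 ± 0.14 and Lpin1 falling by 1.08 on the log2 scale, and Agpat3 had a log2 fold change of -0.92 ± 0.10. In the same PH-CM libraries all 8 endothelial markers were lower, 5 of 6 smooth muscle markers were higher and 1 lower, 4 of the 5 adipocyte markers listed of 8 were higher, and the 4 red cell markers listed of 6 were lower, 3 of them at 0 in every PH-CM library. In Cfib, 4 of 6 smooth muscle markers were listed (3 higher), and 1 endothelial and 1 adipocyte marker, both higher in PH.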
